A study of Mus musculus with 6 samples.

Results

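The 9 genes described here encode parts of the complement system that macrophages make or respond to: the C1q chains C1qa, C1qb and C1qc, the central component C3, complement factor B (Cfb), properdin (Cfp), and the receptors C3ar1, C5ar1 and C5ar2. They were chosen by symbol, as a fixed list, from the 55421 genes of a count table, and all 9 matched a gene and passed the filter on low counts, which left 13588 genes to test. RNA had been sequenced from primary mouse bone marrow-derived macrophages, cells grown in culture from marrow, in 3 libraries of the genotype Tmem175flox/flox Lyz2-Cre+/-, called knockout here, and 3 of wild type (WT). Lyz2-Cre is expressed from the lysozyme gene of myeloid cells and removes the floxed part of Tmem175, which encodes a potassium and proton channel of lysosomes. The design text names wells and no separate animals, so p-values measure the spread between wells, which may be technical. No library carries Cre or floxed alleles alone, so loss of Tmem175 and the presence of Cre in the Lyz2 gene cannot be told apart. The labels give no treatment, time in culture, sex or age.

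Complement is a cascade of blood and tissue proteins that marks microbes and dying cells. In the classical pathway C1q, built from equal numbers of A, B and C chains, binds a target and, with the proteases C1r and C1s, leads to cleavage of C4 and C2. In the alternative pathway factor B joins C3b to form a C3 convertase that properdin stabilises. Cleavage of C3 and C5 releases the anaphylatoxins C3a and C5a, which act on C3aR1 and on C5aR1 and C5aR2. Most complement proteins of plasma come from the liver, while C1q and properdin are made largely by myeloid cells.

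The targeted gene was checked first. Tmem175 stood at 14.3, 13.2 and 12.1 CPM (counts scaled to a common library total, with TMM factors) in the knockout libraries and at 32.8, 33.4 and 33.2 CPM in WT, an adjusted p of 6.01e-05 in edgeR's quasi-likelihood test with Benjamini-Hochberg adjustment over all genes. Lyz2, the gene that holds Cre, stood at 23166, 23691 and 26123 CPM in knockout and 43932, 41780 and 49822 CPM in WT (adjusted p = 0.00415, edgeR), so the knockout libraries were lower there too. Total counts ran from 24179548 to 31542741 per library. The macrophage label was met by its markers: Adgre1, the gene of F4/80, ran from 2482 to 2820 CPM and Cd68 from 1280.3 to 1408 CPM over the 6 libraries. Over all genes 12 were lower (0.0883% of those tested) and 2 higher in knockout, 0.103% together. The leading principal component (29.3% of variance) did not separate the genotypes, though its lowest scores were WT and its highest were knockout. It placed WT replicates 1 and 2 and knockout replicate 1 at -19.9, -17.5 and -2.62, and WT replicate 3 and knockout replicates 3 and 2 at 9.41, 13.2 and 17.4.

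All 9 genes lie on the minus strand of the GRCm38 genome (positions from GENCODE M21). The C1q genes form a cluster on chromosome 4, with C1qb (ENSMUSG00000036905) at 136880129 to 136886187, C1qc (ENSMUSG00000036896) at 136889804 to 136893065 and C1qa (ENSMUSG00000036887) at 136895917 to 136898803, so that the 3 genes span 18675 bases. C5ar2 (ENSMUSG00000074361, 16234585 to 16244154) and C5ar1 (ENSMUSG00000049130, 16246743 to 16259540) are neighbours on chromosome 7, 2588 bases apart. Cfb (ENSMUSG00000090231, 34856374 to 34862518) and C3 (ENSMUSG00000024164, 57203970 to 57228136) lie far apart on chromosome 17, C3ar1 on chromosome 6 (ENSMUSG00000040552, 122847138 to 122856161) and Cfp on the X chromosome (ENSMUSG00000001128, 20925454 to 20931555).

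The stretches before the transcription starts of C1qb and C1qc are printed because these neighbouring genes kept a near constant ratio in all libraries. Those of C3ar1, the receptor, and C3, the precursor of its ligand, are printed because C3ar1 varied little between libraries and C3 varied more. The sequences are from RefSeq (build GRCm38.p6), 5′ to 3′ on the minus strand, at chr4:136886201-136886450, chr4:136893066-136893164, chr6:122856162-122856407 and chr17:57228137-57228386 in that order; bases that GENCODE counts as transcribed were left out, which shortens C1qc to 99 bases. Capitals mark matches to the motifs listed after them.
C1qb: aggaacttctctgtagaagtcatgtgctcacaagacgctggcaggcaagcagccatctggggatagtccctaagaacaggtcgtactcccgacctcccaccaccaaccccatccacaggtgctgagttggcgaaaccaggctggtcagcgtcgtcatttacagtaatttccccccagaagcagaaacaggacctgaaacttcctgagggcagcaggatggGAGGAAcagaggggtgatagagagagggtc
C1qc: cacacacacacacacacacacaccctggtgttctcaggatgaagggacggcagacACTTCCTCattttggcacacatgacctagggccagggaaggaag
C3ar1: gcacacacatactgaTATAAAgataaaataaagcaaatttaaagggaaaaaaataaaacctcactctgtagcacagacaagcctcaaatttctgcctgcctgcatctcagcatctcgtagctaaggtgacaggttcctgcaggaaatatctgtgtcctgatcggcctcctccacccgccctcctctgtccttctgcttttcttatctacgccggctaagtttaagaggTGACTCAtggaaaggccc
C3: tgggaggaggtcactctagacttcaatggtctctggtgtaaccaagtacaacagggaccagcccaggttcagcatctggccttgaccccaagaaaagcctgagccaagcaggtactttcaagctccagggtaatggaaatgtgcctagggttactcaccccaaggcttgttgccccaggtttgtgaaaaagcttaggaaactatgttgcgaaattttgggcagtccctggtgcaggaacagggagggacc

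The motifs were searched on both strands in the 250 bases before each RefSeq start, for the 7 genes with an entry in the promoter table; C5ar2 has 2 starts, which gives 8 windows. GAGGAAGT, a PU.1 sequence, was found on the opposite strand 195 to 188 bases before the C1qc start, and 2.44% of 32851 mouse promoter windows of this length hold it. Its core GAGGAA, which overlaps it, was found 30 to 25 bases before the C1qb start and in 1 of the C5ar2 windows as well as in C1qc, against 23.3% of all windows. That C5ar2 window lies wholly inside the gene as GENCODE marks it. The AP-1 sequence TGACTCA lay 22 to 16 bases before the C3ar1 start (4.46% of all windows), and TATAAA lay 235 to 230 bases before it (12.4%). The C5ar1 window, not printed, held CCAAT (33.8% of all windows) and GAAANNGAA, the core of the interferon-stimulated response element (7.13%). Both matches lay inside the C5ar1 gene as GENCODE marks it, as did 202 of the 250 bases of that window. TGCTGAC, part of the MAF recognition element (3.81%), GGGACTTTC for NF-kB (0.289%), TTCNNNGAA for STAT factors (7.02%) and TGACGTCA, the cyclic AMP response element (1.55%), matched none of the 8 windows, and the windows of C3 and Cfp held no match of any motif searched.

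The C1q chains were among the most abundant messages of these macrophages. Levels of different genes were compared per length, as RPKM (counts per kilobase of annotated exon in CPM units), over all 6 libraries. C1qb stood at 2222 ± 97.4, C1qa at 836 ± 85.7 and C1qc at 798 ± 25.3 (SD, n = 6), ranks 13, 34 and 37 of the 11897 protein-coding genes tested. Together the 3 genes took 0.482% ± 0.0200 of all counts in knockout and 0.482% ± 0.0221 in WT libraries (SD, n = 3 each). Cfp, the stabiliser of the alternative convertase, followed at 319 ± 17.2 (rank 111) and C3ar1 at 302 ± 13.6 (rank 120). C3, the precursor of the ligand of C3aR1, stood at 121 ± 28.2 (rank 341) and C5ar1 at 114 ± 4.38 (rank 375).

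Below these 7 genes came a gap: C5ar2, the second C5a receptor, stood at 2.34 ± 0.285 (rank 8033) and Cfb, the protease subunit of the alternative convertase, at 1.14 ± 0.315 RPKM (rank 9371; SD, n = 6). Neighbours in this order overlapped between libraries for C1qa and C1qc, for Cfp and C3ar1, and for C3 and C5ar1, and were apart elsewhere in it. The place of Cfb depends on the length used: over its unshared exon bases it stood at 5.56 ± 1.54 RPKM, above C5ar2 at 2.43 ± 0.296 (SD, n = 6). In the plot of levels by library, the libraries of the genotypes lie over each other for every gene.

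**Figure D1:**
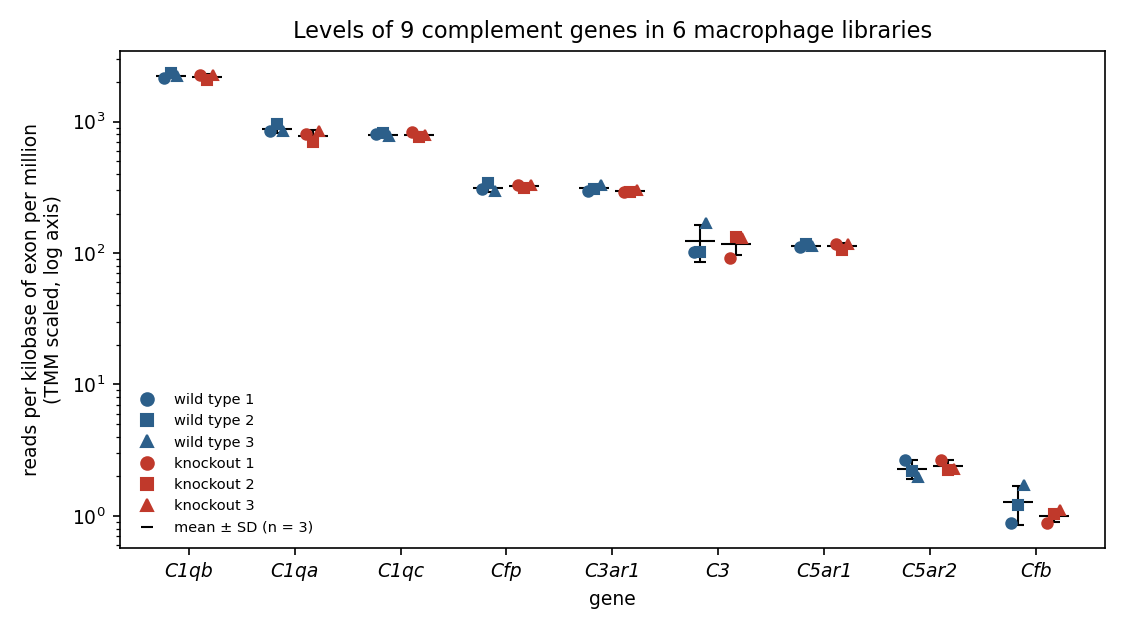
Level of each of the 9 genes in each library, as RPKM (CPM per kilobase of exon) on a log axis; points are libraries, bars are the mean ± SD of 3 libraries per genotype. The genes run from C1qb at 2222 down to Cfb at 1.14, and the genotypes overlap for all 9.

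Among the C1q chains, C1qb exceeded the other chains in every library, while C1qa and C1qc were alike per kilobase of annotated exon. The ratio of C1qc to C1qb, per kilobase, was 0.368, 0.370 and 0.349 in knockout and 0.373, 0.349 and 0.347 in WT libraries, a spread of 0.0123 (SD, n = 6) around 0.359. The genotypes overlapped, with a log2 difference of 0.02 (two-sided exact permutation test, p = 0.90). This ratio depends on what is taken as the length of C1qc: its exons add up to 1931 bases because a noncoding transcript extends them, whereas its longest transcript has 1203. On the latter length C1qc stood at 1280 ± 40.7 RPKM, above C1qa at 836 ± 85.7 (SD, n = 6). The ratio of C1qc to C1qb was then 0.577 ± 0.0198 (SD, n = 6). C1qa (1040 bases) and C1qb (1088 bases) have 1 annotated transcript each, with 59.5% and 57.4% G and C bases, and 57.5% in the coding transcript of C1qc.

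The ratio of C1qa to C1qb was lower in every knockout than in every WT library. It stood at 0.358, 0.339 and 0.371 in knockout and at 0.395, 0.414 and 0.378 in WT, with no overlap and knockout replicate 3 close to WT replicate 3. The log2 difference was -0.15, with p = 0.10 in the two-sided exact permutation test, the smallest p that 3 against 3 libraries allow, and 0.40 adjusted over the 6 ratios compared. For comparison, 10.8% of all genes tested had no overlap between genotypes in CPM. C1qa to C1qc gave 0.972, 0.917 and 1.06 in knockout against 1.06, 1.19 and 1.09 in WT, which overlap (exact permutation p = 0.20, adjusted 0.40). With the longest transcript as length, the mean of C1qa to C1qc was 0.653 ± 0.0585 (SD, n = 6).

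**Figure D2:**
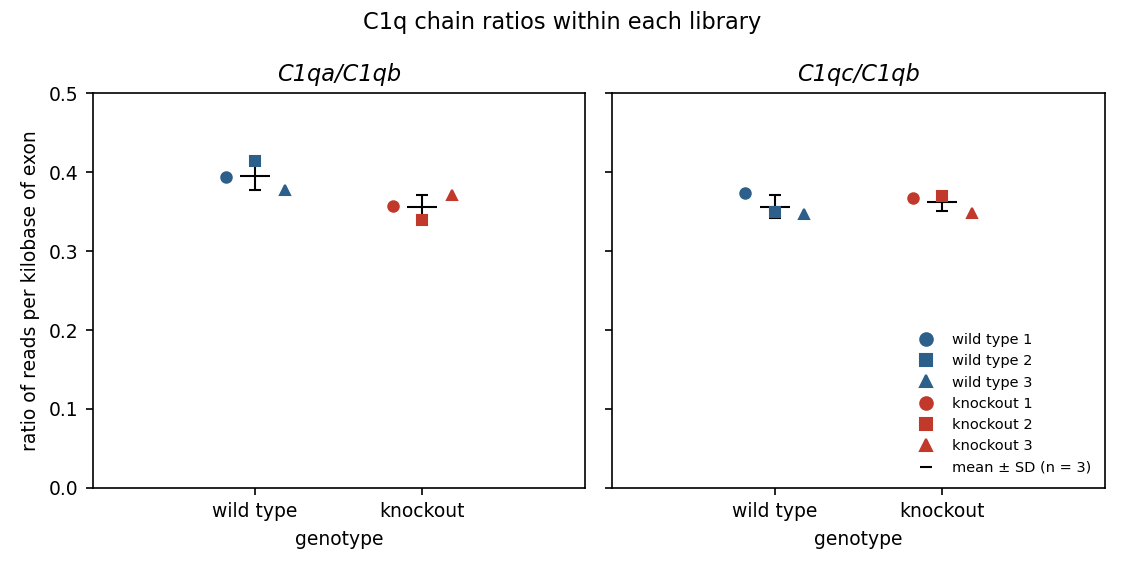
Ratio of reads per kilobase of exon of C1qa (left) and C1qc (right) to C1qb within each library, with points for libraries and bars for the mean ± SD of 3 libraries per genotype. C1qa to C1qb runs from 0.339 to 0.371 in knockout and from 0.378 to 0.414 in WT, while the C1qc ratios overlap.

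None of the C1q chains passed the test between genotypes across all genes. C1qa stood at 841, 728 and 881 CPM in knockout and 884, 1005 and 877 CPM in WT libraries, a log2 fold change of -0.18 (edgeR adjusted p = 0.918, standard error 0.08), with a 95% interval from 0.783 to 1.00 times the WT level. Knockout replicate 2 was the lowest and WT replicate 2 the highest, and knockout replicate 3 lay within the WT range. C1qb stood at 2460, 2246 and 2485 CPM in knockout and 2343, 2539 and 2430 CPM in WT, with an interval of 0.900 to 1.07 times WT (adjusted p = 0.979, edgeR). C1qc stood at 1606, 1475 and 1537 CPM in knockout and 1553, 1574 and 1495 CPM in WT, with an interval of 0.924 to 1.08 times WT (adjusted p = 0.998, edgeR). The genotypes overlapped for both, and knockout replicate 2 was the lowest library for all 3 chains. In bulk RNA, fewer cells of a type and less RNA per cell cannot be told apart.

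Over the whole list, none of the 9 genes was called by edgeR at an adjusted p under 0.05, against 0.103% of all genes tested, and none had an unadjusted p under 0.05, against 5.44%. The DESeq2 test and limma-voom likewise called none, and at an unadjusted p under 0.05 each listed 1, C1qa. In edgeR's test the unadjusted p of C1qa was 0.0527. With other scalings and filters it ran from 0.00372 without a filter to 0.110 with library totals only. None of the 9 had groups that did not overlap, against 10.8% of all genes; 5.73% of all genes had all knockout libraries above WT and 5.06% had all below. The log2 fold changes were negative for 7 genes and positive for 2, with a median of -0.02 beside -0.00090 over all genes tested. With library totals as the only scaling, C1qb, C1qc and C5ar1 turned positive as the median of all genes moved to 0.04.

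C3 differed more between libraries of one genotype than between genotypes. It stood at 475, 678 and 671 CPM in knockout and at 525, 529 and 868 CPM in WT libraries. Knockout replicate 1 and WT replicates 1 and 2 were low and the other libraries were high, the same division that the leading principal component gives. The log2 fold change between genotypes was -0.08 (edgeR adjusted p = 0.979, standard error 0.20), with an interval of 0.699 to 1.29 times WT, and it was 0.21 without WT replicate 3 and 0.08 without knockout replicate 1.

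A few other complement and macrophage genes divided the same 3 libraries from the other 3. Within each set their order was not that of C3, and they were picked out for this division after their values were seen. Clu, clusterin, an inhibitor of the terminal complex, was highest where C3 was low, at 6.82, 3.93 and 4.11 CPM in knockout and 7.68, 7.19 and 5.09 CPM in WT. Itgax, the alpha chain of complement receptor 4, stood at 177, 78.1 and 107 CPM in knockout and 179, 159 and 94.7 CPM in WT. The macrophage marker Cd14 was low where C3 was low, with 475, 609 and 583 CPM in knockout and 471, 507 and 598 CPM in WT. The labels give no batch for this division of the libraries, and its part in the level of C3 was not tested. C1qb did not share the division, as the plot of deviations by library shows.

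**Figure D3:**
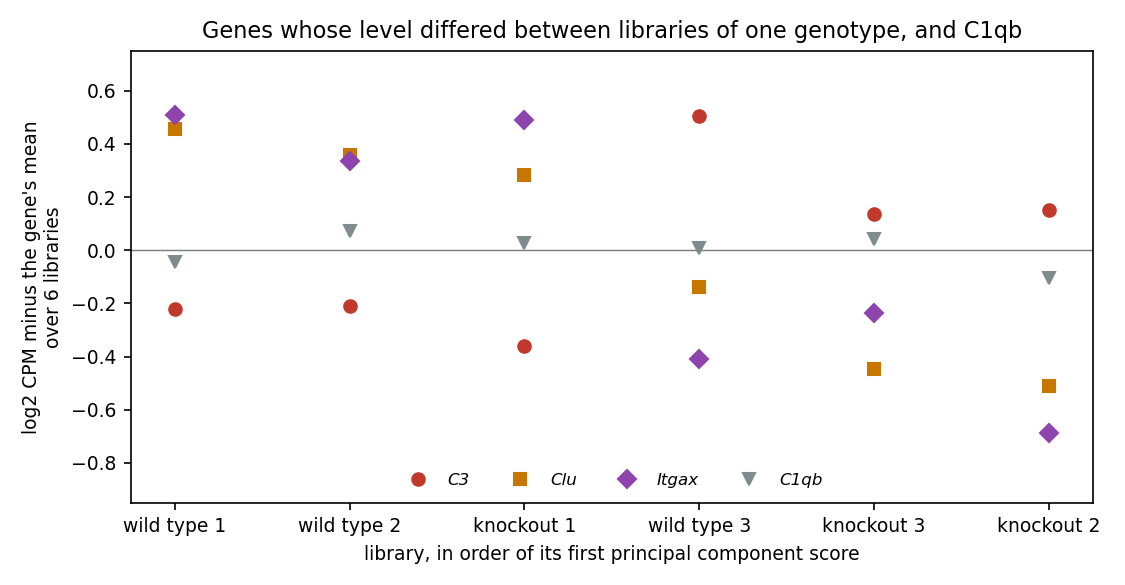
Deviation of log2 CPM from each gene's mean over the 6 libraries, for C3, Clu, Itgax and C1qb, with libraries ordered by their first principal component score. C3 is low and Clu and Itgax are high in WT 1, WT 2 and knockout 1, and the reverse holds in the other libraries, whereas C1qb stays near 0.

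Cfb was detected at low counts: 79, 87 and 82 in knockout and 60, 83 and 123 in WT libraries, or 2.51, 2.90 and 3.12 against 2.51, 3.41 and 4.89 CPM. WT replicate 3 was the highest and WT replicate 1 the lowest by a narrow margin, so the groups overlapped. The log2 fold change was -0.35 (edgeR adjusted p = 0.968, standard error 0.24), with an interval of 0.542 to 1.14 times WT, and -0.06 without WT replicate 3. In each library the level of Cfb per kilobase was 0.00778 to 0.0117 times that of C3 (exact permutation p = 0.20 between genotypes, adjusted 0.40). Over the bases that no other gene shares, the mean ratio was 0.0460 ± 0.00698 in place of 0.00942 ± 0.00143 (SD, n = 6).

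The exons of Cfb are largely shared with another annotated gene. GENCODE M21 lists a further protein-coding gene, Gm20547, that joins exons of Cfb to exons of the neighbouring gene C2, which encodes the protease of the classical convertase and lies 85 bases from Cfb. Of the 2825 exon bases of Cfb, 2246, or 79.5%, also belong to Gm20547, and Gm20547 has 0 exon bases of its own. The count of Gm20547 was 0 in all 6 libraries, so no read on the shared bases was counted for it. How the counting treated reads that fall on more than 1 gene is not given in the sources used here. The level of Cfb above C5ar2 given earlier is set over the 579 unshared bases alone. It would apply if reads on shared bases were not counted for Cfb either, which was not tested. C2 shares 42.8% of its 3872 exon bases with Gm20547 and had counts of 35, 11 and 13 in knockout and 16, 24 and 29 in WT libraries. The levels of Cfb and C2 are therefore uncertain, and their order against other genes with them. No exon base of C1qa, C1qb, C1qc, C3, C3ar1, C5ar1 or Cfp is shared with another gene, and no stretch of 50 bases of their transcripts recurs in a transcript of another gene.

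**Figure D4:**
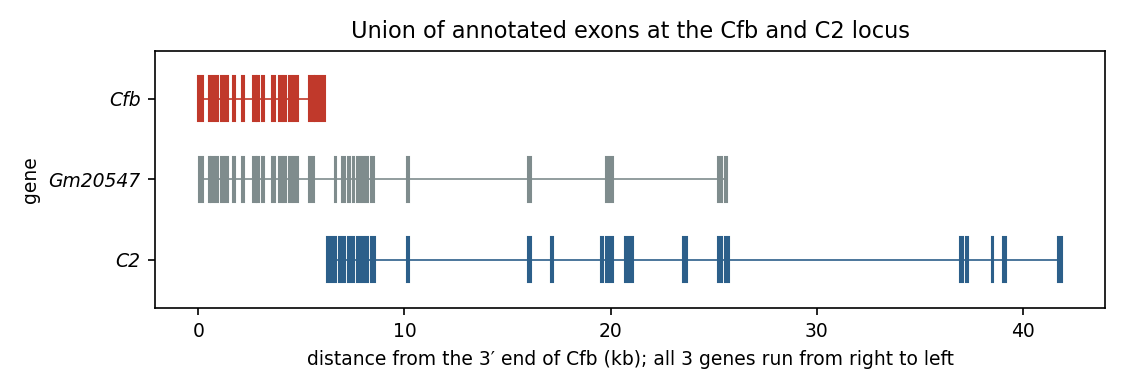
Union of annotated exons (boxes) of Cfb, Gm20547 and C2, by distance in kb from the 3′ end of Cfb; all 3 genes run from right to left. Gm20547 shares 2246 of the 2825 exon bases of Cfb and has none outside its neighbours.

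Cfp did not pass the test either, and its groups overlapped. It stood at 573, 541 and 574 CPM in knockout and 533, 591 and 512 CPM in WT libraries, a log2 fold change of 0.05 (edgeR adjusted p = 0.978, standard error 0.06), with an interval of 0.941 to 1.13 times WT. WT replicate 2 was the highest and WT replicate 3 the lowest library. Properdin is also a product of neutrophils, and of 14 neutrophil markers none was called by edgeR, 8 had an unadjusted p under 0.05, beside 5.44% of all genes tested, and 11 had a positive log2 fold change. All knockout libraries lay above all WT libraries for 4 of the 14 and below them for 1, beside 5.73% and 5.06% of all genes. Their summed level was 856 to 937 CPM in knockout and 520 to 750 CPM in WT libraries, with none at 0. Their part in the level of Cfp was not tested.

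The receptor for C3a was the most abundant anaphylatoxin receptor and varied little. C3ar1 stood at 1245, 1258 and 1302 CPM in knockout and 1285, 1315 and 1409 CPM in WT libraries. Knockout replicate 3 lay above WT replicate 1, and otherwise the knockout libraries were the lower ones. The log2 fold change was -0.08 (edgeR adjusted p = 0.968, standard error 0.05), with an interval of 0.877 to 1.03 times WT. C5ar1, which signals through G proteins to draw and activate phagocytes, stood at 299, 273 and 303 CPM in knockout and 287, 299.9 and 292 CPM in WT (adjusted p = 0.995, edgeR; interval 0.919 to 1.08 times WT). Knockout replicates 2 and 3 were the lowest and the highest library, with WT in between.

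C5ar2 binds C5a but does not couple to G proteins. It had counts of 301, 239 and 212 in knockout and 229, 190 and 177 in WT libraries, or 9.55, 7.96 and 8.06 against 9.56, 7.81 and 7.04 CPM. The first replicate of each genotype was the highest in its group, and the groups overlapped (edgeR adjusted p = 0.979 for a log2 fold change of 0.07, standard error 0.13; interval 0.853 to 1.29 times WT). Per kilobase, C5ar1 exceeded its neighbour C5ar2 by 43.4, 47.5 and 52.1 times in knockout and by 41.5, 53.2 and 57.5 times in WT libraries (exact permutation p = 0.70 between genotypes, adjusted 0.84). C5ar1 reached 0.402, 0.363 and 0.390 of the level of C3ar1 in knockout and 0.374, 0.382 and 0.347 in WT (exact permutation p = 0.40, adjusted 0.60). A stretch of 127 exon bases of C5ar2 also belongs to the small nuclear RNA gene Gm26473, and 4.39% of its 50-base stretches recur in transcripts of other genes.

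The rest of the cascade was read from 4 lists with 50 genes, of which 23 passed the filter and 12 had a count of 0 in all libraries. One was called lower in knockout and none higher, against 0.103% of all genes, and the median log2 fold change of the 23 was -0.04 beside -0.00090 over all genes tested. The 5 genes of the terminal complex other than C8g, namely C6, C7, C8a, C8b and C9, had at most 4 counts in any library. Hc, which encodes C5, the source of the ligand of C5ar1 and C5ar2, had 1 count in 1 library. Cfd, factor D, which cleaves factor B, had 1 count in 1 library as well. A count of 0 allows a level of up to 0.0952 to 0.125 CPM, depending on the library (3 counts, counting error only). C8g, the lipocalin-like chain of C8, stood at 1.90, 2.26 and 2.36 CPM in knockout and 1.34, 1.89 and 1.43 CPM in WT, with no overlap (edgeR adjusted p = 0.917 for a log2 fold change of 0.48, standard error 0.21).

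In the classical and lectin pathways 7 of 16 genes passed the filter and none was called; 1, Fcna, had an unadjusted p under 0.05. Fcna, ficolin A, a lectin of macrophages that starts the lectin pathway, stood at 5.39, 6.69 and 5.67 CPM in knockout and 6.81, 8.14 and 9.18 CPM in WT, with no overlap (edgeR adjusted p = 0.795 for a log2 fold change of -0.44, standard error 0.14). The C1 proteases were far below C1q: C1ra stood at 2.94 ± 0.496 and C1rl, a relative of C1r, at 1.80 ± 0.158 RPKM (SD, n = 6), and C1s1, the gene of C1s, had 4 to 21 counts per library. C4b had 74 to 99 counts; its near copy C4a had 6 to 11, and reads shared by these genes cannot be told apart here. Mbl1 and Mbl2, the mannose-binding lectins, were at 0 in all libraries.

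Of 17 regulators 8 passed the filter, and none was called or had an unadjusted p under 0.05 in edgeR's test. The 3 highest per length were C1qbp, a mitochondrial protein that binds C1q, at 17.6 ± 0.714, Cr1l, the rodent membrane regulator Crry, at 7.41 ± 0.181, and Cd59a, an inhibitor of the terminal complex, at 3.74 ± 0.700 RPKM (SD, n = 6). Cd55, which speeds the decay of convertases, stood at 8.88, 14.4 and 14.8 CPM in knockout and 10.1, 10.6 and 8.47 CPM in WT; knockout replicate 1 lay within the WT range (edgeR adjusted p = 0.932 for a log2 fold change of 0.38, standard error 0.18). Serping1, the inhibitor of C1r and C1s, was picked out after its values were seen; it stood at 6.05 CPM in WT replicate 1 and at 1.89 to 2.86 CPM in the other libraries. That library also had the highest summed level of 8 stromal markers, 71.3 CPM against 17.3 to 52.2 CPM in the others, with Col1a1 at 23.7 CPM; their part in the level of Serping1 was not tested.

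Among 9 complement receptors beyond the anaphylatoxin receptors, 7 passed the filter and Vsig4 alone was called. Vsig4, which binds C3b and iC3b on tissue macrophages, had counts of 12, 8 and 18 in knockout and 55, 50 and 52 in WT libraries, and the groups did not overlap. It stood at 0.444 ± 0.216 CPM in knockout and 2.14 ± 0.136 CPM in WT (SD, n = 3 each; edgeR adjusted p = 0.0411 for a log2 fold change of -2.28, standard error 0.32). The fold kept its direction without any 1 library, but the adjusted p then ran from 0.0729 to 0.207, and Vsig4 was called in none of those 6 fits. Per length Vsig4, at 0.870 ± 0.635 RPKM (SD, n = 6), was far below Itgb2, the beta chain of complement receptors 3 and 4, at 326 ± 20.97, Calr, calreticulin, a binding partner of the C1q tail, at 298 ± 12.7, and Lrp1, its endocytic co-receptor, at 136 ± 12.1. Itgb2, Calr and Lrp1 had log2 fold changes of -0.02 (SE 0.07), -0.06 (SE 0.05) and -0.04 (SE 0.09).

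**Figure D5:**
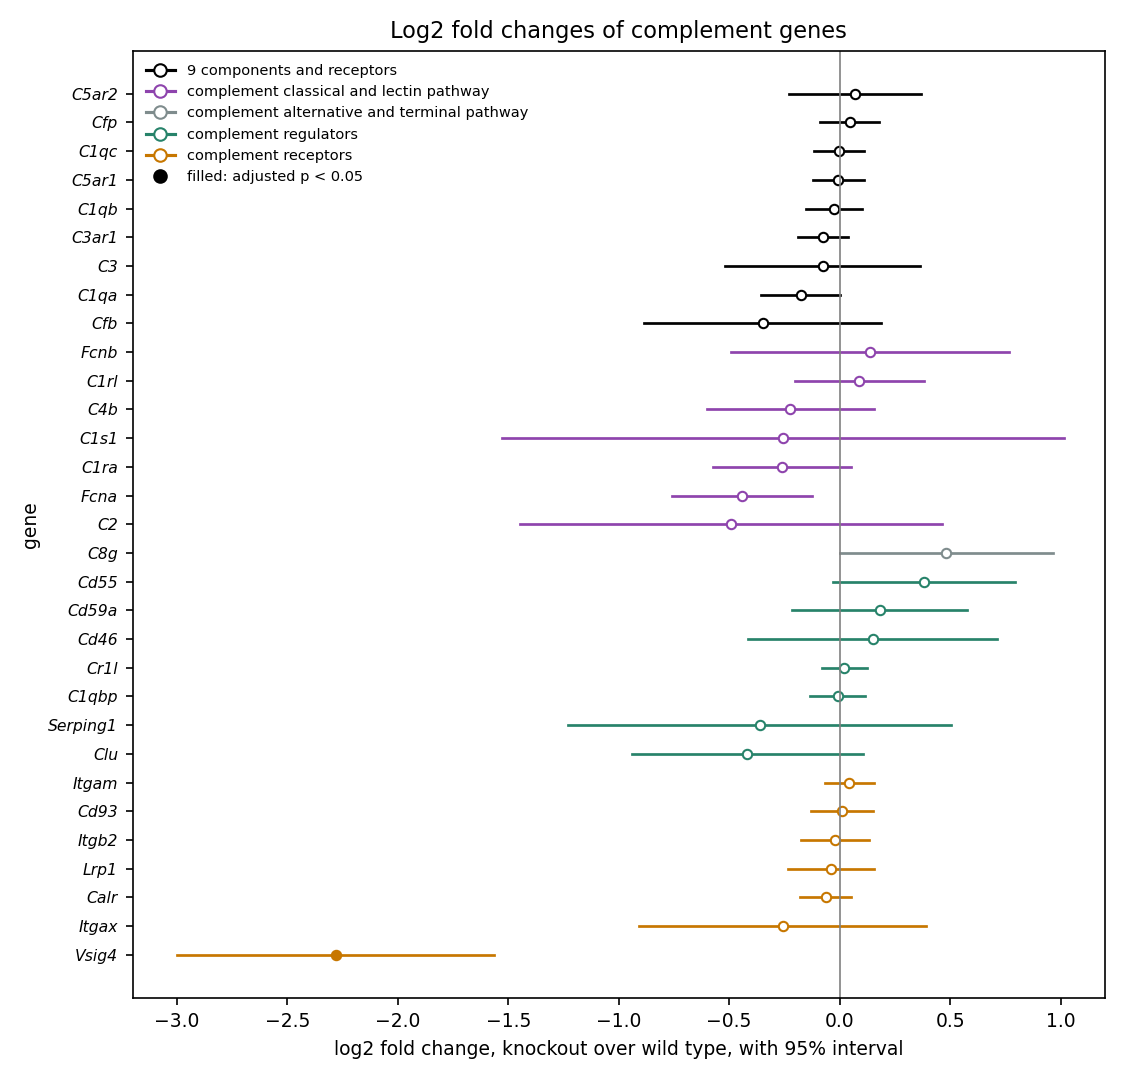
Log2 fold change of knockout over WT with its 95% interval for the 9 components and receptors (black) and for other complement genes among those that passed the filter; filled points passed an adjusted p under 0.05 in edgeR's test. The interval of each black point includes 0, and Vsig4 is the filled point.

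Genes with the most similar course over the 6 libraries were searched among those with a mean of at least 10 CPM, by Pearson's r of log2(CPM + 1). These are descriptions, since each set is taken from the 5 highest of 8246 or 8248 values of r. Each r rests on 6 libraries, and all genes of a library share its depth. Among the genes closest to the mean of the C1q chains were Rab5c (r = 0.985), Polr2m (0.982), Sel1l3 (0.976) and Srek1ip1 (0.970). C3 was followed by Nfe2l2 (0.993), Arl6ip5 (0.992), Igf1 (0.990), Opa3 (0.990) and Anxa6 (0.988). C5ar1 was followed by Hnrnpu (0.995), Diexf (0.980), Man2b1 (0.974), Arpc2 (0.971) and Alg3 (0.961).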

How the data were processed

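Raw counts of reads for each Ensembl gene were deposited; HISAT2, featureCounts and the build GRCm38 are named, per the submitters' processing notes. The sources used here do not give versions, annotation release, strand setting or the handling of shared reads. The library kit was a SMARTer kit for mRNA, per the labels' protocols. Symbols, exons and positions came from GENCODE M21 (55240 of 55421 IDs matched; the rest held at most 0.00172% of a library). Promoters came from RefSeq.

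Counts were filtered with filterByExpr, scaled by TMM and tested with edgeR 4.0.16 (two-sided quasi-likelihood test, genotype as the only term, R 4.3.3), with calls made where the p adjusted by Benjamini-Hochberg was under 0.05. The F statistic gave standard errors and 95% intervals. CPM uses the scaled totals. Ratios within a library were compared by exact permutation. The script was tested on simulated data. No replicate pair agreed within sampling noise (chi-square over degrees of freedom 3.66 to 17.6). Alternatives were other scalings and filters, DESeq2 1.42.0, limma-voom (limma 3.58.1), a replicate block, other lengths, and leaving out each library.

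The 9 genes and the lists were chosen with earlier results of these data known. Named were the 9 genes, and from each other complement list the called genes, the 3 highest per length and the 3 with the smallest p; C1s1, C2, C4a, Mbl1, Mbl2, Serping1, Cd14 and the terminal genes were named after their values were seen. Of the genes the rule names, 2 are not reported here. Of the other marker lists, no gene was called by edgeR in the stromal, dendritic, lymphoid, mast cell or erythroid and megakaryocyte lists. An unadjusted p under 0.05 was found for 0 of 7, 3 of 8, 4 of 6, 4 of 6 and 4 of 5 genes tested, beside 5.44% of all genes, and 1, 2, 0, 1 and 0 of the genes tested had a positive log2 fold change. Of 10 macrophage markers Lyz2, which carries Cre, was called lower.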

Additional observations from a re-analysis of the deposited data

How the results depend on the processing

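None of the 9 genes was called under any of the 14 alternatives; Cfb and C5ar2 dropped out where the mean had to reach 10 CPM. Directions near 0 turned. With library totals only, C1qb was at 0.0183, C1qc at 0.0410 and C5ar1 at 0.0370 on the log2 scale, and without a filter C1qc was at 0.00809 and C5ar1 at 0.00384. Leaving out 1 library each, C1qb ranged from -0.0517 to 0.0231, C1qc from -0.0309 to 0.0312, C3 from -0.200 to 0.207, C5ar1 from -0.0335 to 0.0430, C5ar2 from -0.0239 to 0.202 and the C5ar1 to C5ar2 ratio from -0.219 to 0.0159; the cause was not tested.

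Over all genes, 12 lower and 2 higher became 30 and 10 with DESeq2, 112 and 39 without a filter, 5 and 0 at a mean of 10 CPM or more, and 4 to 10 and 0 to 2 without 1 library. Of the other complement genes, 1 (Vsig4) was called, and 0 where the mean had to reach 10 CPM, which drops it, 0 with the replicate block (adjusted p = 0.0610) and 0 to 0 without 1 library. The replicate numbers do not pair the wells: deviations of same-numbered libraries correlated at 0.0570, -0.123 and 0.0388. With the replicate block 14 genes were lower and 3 higher. The order of the 9 levels held with library totals; C1qa and C1qc changed places with the longest transcript as length, and Cfb and C5ar2 with unshared bases. Counts per library ran low for Vsig4 (8 to 55), Cfb (60 to 123) and C5ar2 (177 to 301).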
